A study of Mus musculus with 24 samples.

Results

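The myelin and oligodendrocyte genes Mbp, Mobp, Cnp, Mal, Cldn11, Ugt8a, Opalin, Mag and Mog were followed over 2 brain regions, amygdala and hippocampus, in male mice of a high freezing and a low freezing line. Freezing, the immobility of a frightened mouse, was the trait the lines were bred for, scored in contextual fear conditioning, where the chamber itself had been paired with foot shocks. The genes were chosen by name: every probe set, the group of short probes an Affymetrix array carries for a transcript, whose single platform symbol was a member was taken, which gave 25 probe sets of 9 genes, among 45037 probe sets and 18161 named genes. The groups were amygdala of the high freezing line (line 25), amygdala of the low freezing line (line 24), hippocampus of the high line and hippocampus of the low line, each with 6 arrays. No transgene, drug or time point is named in the labels, and the sources used here do not give strain, age or behavioural history. Each line is a single breeding line, so a difference made by selection and one that arose by drift cannot be told apart, and it is not stated that each array holds a separate animal, so p-values measure the spread between arrays.

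Oligodendrocytes wrap axons in many layers of membrane, which are compacted into myelin and speed conduction. Compact myelin is held together by basic proteins on its cytoplasmic faces, while adhesion proteins sit at its inner and outer surfaces and enzymes of the cell supply its lipids. In the forebrain, myelin is densest in fibre tracts, and grey matter holds both myelinating cells and their dividing precursors. Among the compact myelin and membrane proteins, Mbp encodes myelin basic protein, which fuses the cytoplasmic faces, Mobp encodes a second small basic protein of central myelin, Mal a proteolipid of membrane trafficking, and Cldn11 the claudin of the tight junctions within the myelin sheath. Mag encodes an adhesion protein that faces the axon and Mog an immunoglobulin-like protein of the outermost surface, while Opalin encodes a transmembrane glycoprotein of oligodendrocytes. Cnp encodes the cyclic nucleotide phosphodiesterase of noncompact myelin, and Ugt8a the enzyme that makes galactosylceramide, a main myelin lipid.

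The bases before the start sites are shown for the 5 genes whose window held a searched core motif of SOX, MYRF or OLIG2 factors. Upstream windows of 250 bases from RefSeq (GRCm38.p6) were at hand for 8 of the 9 genes, and those 5 are printed 5′ to 3′ along the gene, ending at the base before an annotated start site (for Mag, 1 of 3). The Cnp window ends at 100574938, past the outermost annotated start of that gene at 100574909. Its CCGCCC matches, at -26 and -8, lie past that outermost start. Capitals mark every searched motif on either strand: ACAAAG and ACAATG (the core of SOX factors such as SOX10), CTGGCAC and CTGGTAC (the core of MYRF, the myelin regulatory factor), CAGCTG and CATCTG (E-boxes of the kind OLIG2 binds) and GGGCGG (the core of SP1).
Mobp (chr9:120149492-120149741, plus strand): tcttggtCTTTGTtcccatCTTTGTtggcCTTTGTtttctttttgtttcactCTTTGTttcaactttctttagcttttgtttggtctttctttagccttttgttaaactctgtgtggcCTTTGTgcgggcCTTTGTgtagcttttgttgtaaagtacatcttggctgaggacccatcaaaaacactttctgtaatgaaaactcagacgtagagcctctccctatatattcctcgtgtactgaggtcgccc
Mag (chr7:30914864-30915113, minus strand): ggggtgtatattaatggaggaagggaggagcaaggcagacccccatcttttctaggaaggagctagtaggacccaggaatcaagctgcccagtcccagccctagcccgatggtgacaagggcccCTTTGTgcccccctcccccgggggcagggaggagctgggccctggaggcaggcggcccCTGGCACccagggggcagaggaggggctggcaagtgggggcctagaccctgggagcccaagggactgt
Mog (chr17:37023399-37023648, minus strand): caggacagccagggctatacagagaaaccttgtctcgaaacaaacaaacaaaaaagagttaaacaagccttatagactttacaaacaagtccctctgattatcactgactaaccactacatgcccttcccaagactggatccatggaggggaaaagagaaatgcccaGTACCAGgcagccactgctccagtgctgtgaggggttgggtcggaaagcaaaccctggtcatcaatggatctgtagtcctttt
Cnp (chr11:100574689-100574938, plus strand): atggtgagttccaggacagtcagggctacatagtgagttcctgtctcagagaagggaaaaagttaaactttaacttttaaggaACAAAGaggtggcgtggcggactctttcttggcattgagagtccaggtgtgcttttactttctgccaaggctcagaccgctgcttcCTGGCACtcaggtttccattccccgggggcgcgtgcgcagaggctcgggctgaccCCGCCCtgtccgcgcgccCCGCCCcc
Opalin (chr19:41077114-41077363, minus strand): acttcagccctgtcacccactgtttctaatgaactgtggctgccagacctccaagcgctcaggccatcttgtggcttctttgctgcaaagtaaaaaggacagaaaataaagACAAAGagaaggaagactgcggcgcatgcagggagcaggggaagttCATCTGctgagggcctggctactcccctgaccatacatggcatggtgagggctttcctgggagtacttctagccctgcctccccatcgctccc
The Mobp window held 6 copies of CTTTGT, the reverse complement of ACAAAG, between -243 and -120 bases from the start site, and 1 of 32851 windows of this length in the genome's annotated genes, that of Mobp, held as many. The 8 genes had 10 windows, since Mag had 3, and a gene was counted where any of its windows held the motif, both here and among all 27025 genes with a window. ACAAAG was found in 4 of 8 genes (Mobp, Mag, Cnp and Opalin), against 18.6% of all genes, and in 5 of 10 windows, against 16.5% of all windows. CTGGCAC stood in Mag and Cnp (4.83% of all genes) and CTGGTAC, as GTACCAG on the printed strand, in Mog (2.11%). A MYRF core was thus in 3 of 8 genes, against 6.79% of all genes, and in 4 of 10 windows, against 5.93% of all windows. The printed Mag window overlaps another Mag window, and both hold the same ACAAAG and CTGGCAC sites. Each of those sites therefore enters the window counts for both. Opalin held the E-box CATCTG (16.3% of all genes), ACAATG and CAGCTG were in 0 of the 8 (12.2% and 14.7% of all genes), and GGGCGG was in Cnp and Ugt8a (35.4%). No searched motif overlapped another kind in these windows, and a match is a run of letters and not a measured site. Whether these motifs bear on how the genes varied between arrays was not tested.

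The arrays were scaled by the authors to a common trimmed mean of 150, and levels are given here as log2(signal + 16). Each gene is represented by its brightest probe set unless another is named, and levels of different genes are not compared, because probe sets differ in brightness for a given amount of RNA. A difference was called when its limma p-value, adjusted by Benjamini-Hochberg over all 45037 probe sets, was under 0.05. All 6 measured amygdala and striatum markers (Penk by 3.59 in the high line) were called higher in amygdala in both lines. All 8 hippocampal markers (Dsp by -3.80 in the high line) were called lower in both. Of all named genes, 12.5% in the high line and 9.52% in the low line were called higher, and 9.67% and 7.67% lower. These lists were chosen with earlier results of these data known, so the counts are no independent check of the labels. The tissues also differed in a control for RNA: the 5′ probe set of 18S ribosomal RNA read 324 to 1525 in high-line amygdala and 295 to 1148 in low-line amygdala, against 3600.0 to 5800 in high-line hippocampus and 5859 to 7093 in low-line hippocampus. Tissue and the preparation of its RNA therefore cannot be told apart. In tissue samples, fewer oligodendrocytes and less of these RNAs per cell cannot be told apart either.

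**Figure D1:**
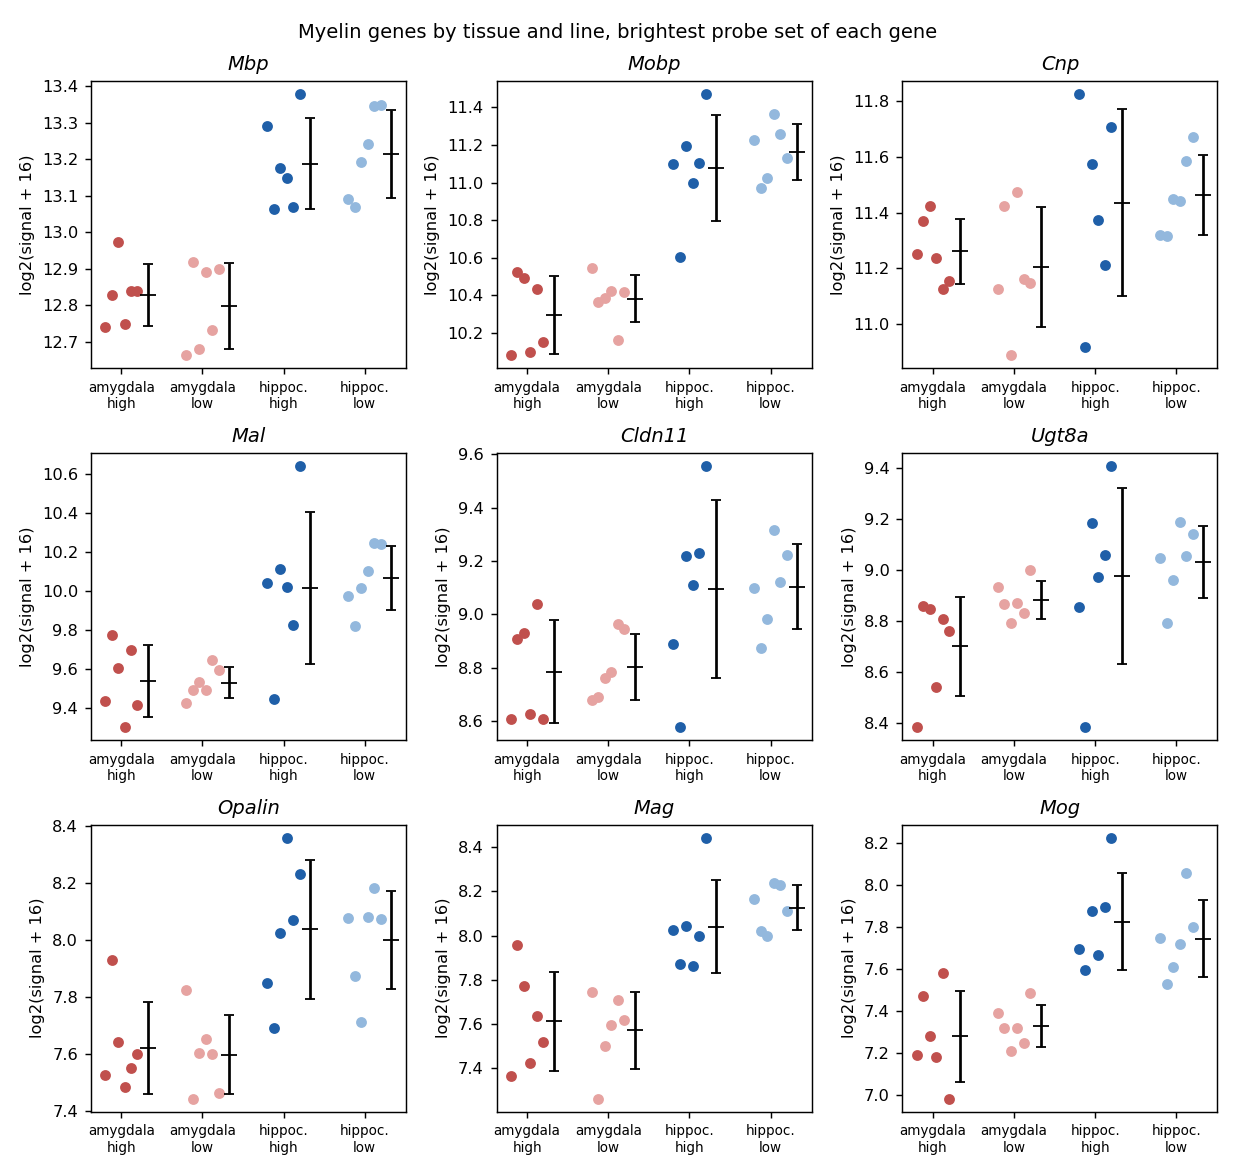
Level of each gene (log2(signal + 16), vertical axis, not starting at 0) on the 24 arrays, in amygdala of the high and low line and hippocampus of the high and low line; dots are arrays and bars are the mean ± SD (n = 6). Amygdala lies below hippocampus for every gene, and Mbp, Mobp and Mog do so with no shared range in either line.

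All 9 genes had a lower mean in amygdala than in hippocampus in both lines, and 6 of them (Mbp, Mobp, Mal, Opalin, Mag and Mog) passed the test in each line. The share of all probe sets called lower in amygdala was 10.0% in the high line and 6.47% in the low line, and the share called higher was 9.05% and 6.98%. The median difference of the 9 genes was -0.42 in the high line and -0.41 in the low line, beside medians over all probe sets of -0.04 and 0.01. The groups of arrays shared no range for 3 of 9 genes in the high line (Mbp, Mobp and Mog) and for 5 of 9 in the low line (these and Mal and Mag), while 10.6% and 8.86% of all probe sets did so.

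Mobp had the largest difference when each gene was read by its brightest probe set. The lowest, median and highest Mobp levels were 10.08, 10.29 and 10.52 in high-line amygdala, against 10.60, 11.10 and 11.47 in high-line hippocampus. In the low line they were 10.16, 10.40 and 10.54 in amygdala, against 10.97, 11.18 and 11.37 in hippocampus. The highest amygdala array lay below the lowest hippocampus array in each line. Mobp was 1.72-fold lower in amygdala in both lines (log2 difference -0.78 ± 0.12 SE, adjusted p = 2.69e-05 in the high line; -0.78 ± 0.12 and 3.04e-05 in the low line; limma). The log2 difference exceeds the SD between arrays of any group, which ran from 0.13 to 0.28.

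Mbp was also lower in amygdala by its brightest probe set, which lay near the top of the arrays' signal range. Mbp reached 12.74, 12.83 and 12.97 in high-line amygdala, against 13.06, 13.16 and 13.38 in high-line hippocampus (lowest, median and highest). Low-line values were 12.66, 12.81 and 12.92 in amygdala, against 13.07, 13.22 and 13.35 in hippocampus. The ranges did not overlap in either line. Mbp was lower by a factor of 1.28 in amygdala of the high line (log2 difference -0.36 ± 0.07 SE, adjusted p = 0.0012, limma) and of 1.33 in the low line (-0.42 ± 0.07, 0.000282).

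Mal was lower in amygdala in both lines. From lowest to median to highest, Mal read 9.30, 9.52 and 9.77 in high-line amygdala, against 9.45, 10.03 and 10.64 in high-line hippocampus. The low line gave 9.42, 9.51 and 9.64 in amygdala, against 9.82, 10.06 and 10.24 in hippocampus. The high-line ranges overlapped, because hippocampus array 8 read as low as the amygdala arrays, and the low-line ranges did not. The differences were -0.48 ± 0.13 SE (adjusted p = 0.0133, limma) in the high line and -0.54 ± 0.13 (0.00672) in the low line. Mal was the only gene that lost its high-line call (adjusted p = 0.0722) when that line's arrays alone were fitted.

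The surface proteins on both sides of the sheath, Mag and Mog, were lower in amygdala as well. Levels of Mag (lowest, median, highest) were 7.36, 7.58 and 7.96 in high-line amygdala, against 7.86, 8.01 and 8.44 in high-line hippocampus. Those of the low line were 7.26, 7.61 and 7.74 in amygdala, against 8.00, 8.14 and 8.24 in hippocampus. The ranges overlapped in the high line and not in the low line. Mag differed by -0.43 ± 0.11 SE (adjusted p = 0.0065, limma) in the high line and -0.55 ± 0.11 (0.000715) in the low line. The lowest, median and highest Mog levels were 6.98, 7.23 and 7.58 in high-line amygdala, against 7.59, 7.79 and 8.22 in high-line hippocampus. In the low line they were 7.21, 7.32 and 7.49 in amygdala, against 7.53, 7.73 and 8.06 in hippocampus. All amygdala arrays read below all hippocampus arrays of their line. Mog differed by -0.54 ± 0.11 SE (adjusted p = 0.000928, limma) in the high line and -0.41 ± 0.11 (0.0121) in the low line.

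Opalin, the oligodendrocyte glycoprotein, was the last called gene. Opalin reached 7.49, 7.57 and 7.93 in high-line amygdala, against 7.69, 8.05 and 8.36 in high-line hippocampus (lowest, median and highest). Low-line values were 7.44, 7.60 and 7.82 in amygdala, against 7.71, 8.07 and 8.18 in hippocampus. The ranges overlapped in both lines. Its differences were -0.42 ± 0.11 SE (adjusted p = 0.00774, limma) in the high line and -0.40 ± 0.11 (0.0126) in the low line.

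Cnp, Cldn11 and Ugt8a did not pass the test in either line. From lowest to median to highest, Cnp read 11.13, 11.24 and 11.42 in high-line amygdala, against 10.92, 11.47 and 11.83 in high-line hippocampus. The low line gave 10.89, 11.15 and 11.47 in amygdala, against 11.31, 11.44 and 11.67 in hippocampus. The difference was -0.18 ± 0.13 SE (95% interval -0.44 to 0.09, adjusted p = 0.368, limma) in the high line and -0.26 ± 0.13 (-0.52 to 0.001, 0.21) in the low line. The hippocampal high-line arrays spread over nearly a whole log2 unit and enclosed the amygdala arrays of that line.

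Levels of Cldn11 (lowest, median, highest) were 8.61, 8.77 and 9.04 in high-line amygdala, against 8.58, 9.16 and 9.56 in high-line hippocampus. Those of the low line were 8.68, 8.77 and 8.96 in amygdala, against 8.87, 9.11 and 9.32 in hippocampus. For Cldn11 the differences were -0.31 ± 0.13 SE (adjusted p = 0.0865, limma) in the high line and -0.30 ± 0.13 (0.133) in the low line. Its ranges overlapped in both lines. The lowest, median and highest Ugt8a levels were 8.38, 8.79 and 8.86 in high-line amygdala, against 8.39, 9.02 and 9.41 in high-line hippocampus. In the low line they were 8.79, 8.87 and 9.00 in amygdala, against 8.79, 9.05 and 9.19 in hippocampus. For Ugt8a they were -0.28 ± 0.12 SE (adjusted p = 0.124) and -0.15 ± 0.12 (0.531). Ugt8a had the smallest tissue difference of the low line, and its ranges overlapped in both. Without array 8 of high-line hippocampus, the high-line difference of Cldn11 was -0.42 (adjusted p = 0.0122, limma) and that of Ugt8a -0.40 (0.00881), and both passed the test, so the count for that line was 8 of 9.

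The other probe sets of the genes mostly ran the same way, with exceptions within Mbp and Cnp. Of the 25 probe sets, 17 were called lower in amygdala in the high line and 15 in the low line, 23 and 24 had a negative difference, and 1 was called higher. That probe set, Mbp 1425264_s_at, differed by 0.09 ± 0.09 SE (adjusted p = 0.562, limma) in the high line and 0.33 ± 0.09 (0.0169) in the low line. The size depended on the probe set: the 6 brightest Mbp probe sets were all called lower in both lines, with differences between -0.33 and -1.10 in the high line and between -0.38 and -0.71 in the low line. The dimmer 1425263_a_at was not called, with -0.23 ± 0.13 and -0.15 ± 0.13. Across the deviations of arrays from their group means, 1425264_s_at had r = -0.125 with the brightest Mbp probe set and 1425263_a_at had 0.295, while the 4 next brightest had 0.843 to 0.884. The files do not say which Mbp transcripts each probe set reads.

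Mobp, Cnp, Mal, Ugt8a and Opalin also had more than 1 probe set. The 4 brighter Mobp probe sets were called lower in both lines, and the dimmest, 1441308_at, near the low end of the array's levels at 4.22 in amygdala and 4.35 in hippocampus of the high line, was not. None of the 3 Cnp probe sets was called in either line. The second Mal probe set, 1432558_a_at, had larger differences than the brightest, -0.96 ± 0.17 SE (adjusted p = 0.00015, limma) in the high line and -0.75 ± 0.17 (0.00256) in the low line. The second Ugt8a probe set, 1419064_a_at, was called in the high line (-0.45 ± 0.15, adjusted p = 0.0429) and not in the low line (-0.17 ± 0.15, 0.585), so the 2 probe sets of Ugt8a disagree in the call. High-line amygdala array 7 read 5.62 on it, against 6.23 to 6.83 on the others of that group. This array was also the lowest of its group for Mal 1432558_a_at (7.43) and Mobp 1421010_at (8.64) and 1450088_a_at (6.97). It was the lowest for Cnp 1449296_a_at (7.83) as well, but not for Cnp 1418980_a_at (8.85). Its ratio of the 5′ to the 3′ actin control was the lowest of all arrays (0.30). The part of RNA quality in these readings was not tested. The dim second Opalin probe set, 1447487_at, was called in the high line (-0.72 ± 0.21, 0.0166) and not in the low line (-0.44 ± 0.21, 0.196). The interaction of tissue and line was called for no probe set of the 9 genes (adjusted p from 0.725 to 0.999, limma).

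**Figure D2:**
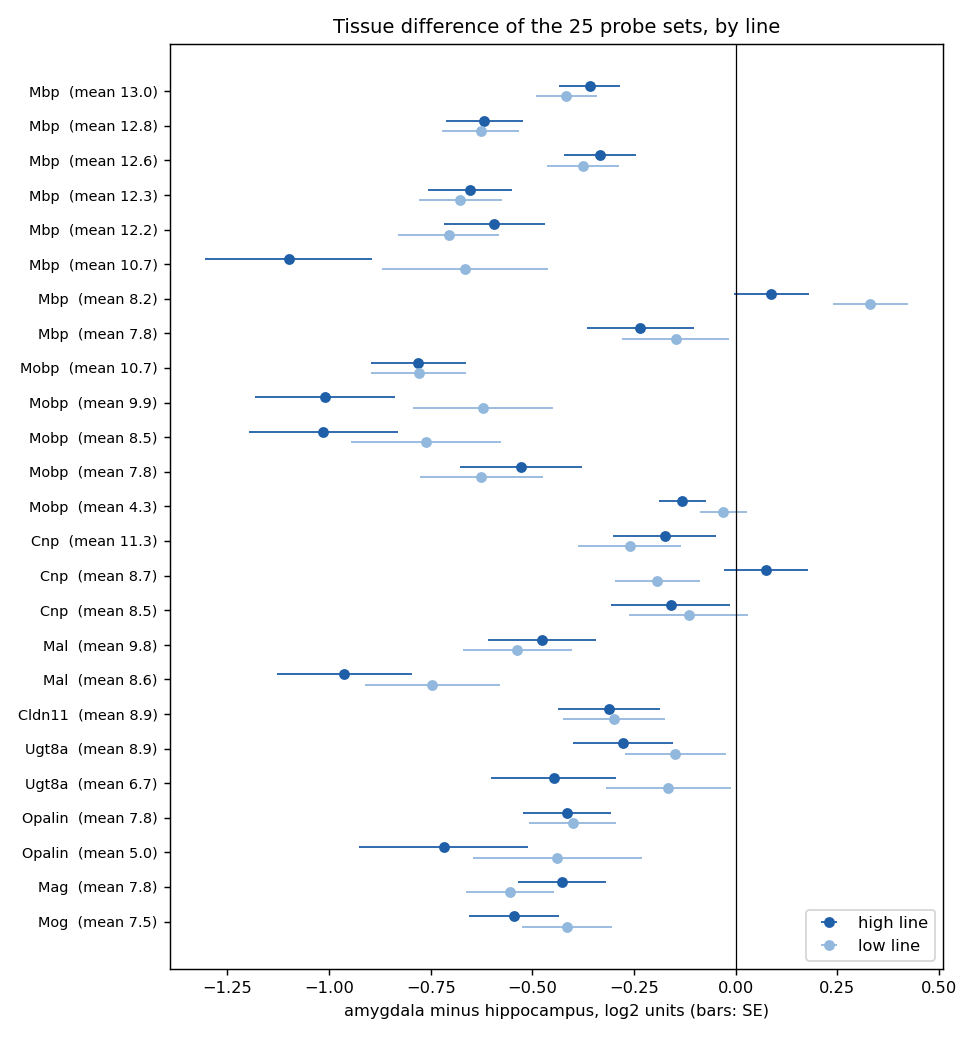
Difference amygdala minus hippocampus (log2 units, horizontal axis) of the 25 probe sets, by gene and from bright to dim within a gene (mean log2 level over all arrays in brackets), for the high line (dark) and the low line (light); dots are limma estimates and bars are ± 1 SE. All but the seventh Mbp probe set and, in the high line, the second Cnp probe set lie left of 0.

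About as many of the other mature oligodendrocyte genes were called lower in amygdala as were not called, and some genes of precursors were called higher. Of 18 measured genes of the mature oligodendrocyte list outside the 9, 10 were called lower in amygdala in the high line and 9 in the low line, and none higher, with medians of -0.42 and -0.28. Among all 18161 named genes, 9.67% were called lower in amygdala in the high line, with a median of -0.009, and 7.67% in the low line, with a median of 0.023. The shares of named genes called higher were 12.5% in the high line and 9.52% in the low line. In the mature oligodendrocyte list the largest differences were those of Apod, a lipid-binding lipocalin (-1.15 ± 0.09 SE, adjusted p = 8.49e-10 in the high line; -0.81 ± 0.09, 2.54e-07 in the low line), Anln, an actin-binding protein (-0.93 and -0.71), Gpr37, a receptor of differentiating oligodendrocytes (-0.85 and -0.90), and Ndrg1 (-0.78 and -0.75). Of 10 other compact myelin and membrane genes, 4 were called lower in each line, namely Cd9, Plekhb1, Tmem88b and Tspan2, a tetraspanin of myelinating cells (-0.36 ± 0.11 SE, adjusted p = 0.0241, and -0.36 ± 0.11, 0.0326), and 1 higher, Tmeff2.

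Of 15 genes of noncompact myelin, its cytoskeleton and axon contact, 5 were lower and 2 higher in each line. Among all named genes, 9.67% were called lower in the high line and 7.67% in the low line, and 12.5% and 9.52% higher. Ermn, which binds actin in mature oligodendrocytes, differed by -0.60 and -0.48, Bcas1, a marker of early myelinating cells, by -0.55 and -0.59, and the septin Septin4 by -0.55 and -0.62. Marcksl1, a growth-related actin regulator also made by neurons, was higher (0.91 and 0.63), as was Kif5a, a neuronal kinesin (0.25 and 0.24). Of 14 lipid synthesis genes, 1 was lower in the high line (Aspa, which frees acetate from acetylaspartate, -0.65 ± 0.15 SE, adjusted p = 0.00253) and 3 in the low line (Aspa, Fa2h and Elovl1), with medians of -0.04 and -0.02. These counts are 7.14% and 21.4% of the list. Among 9 transcription factors, Myrf was lower in both lines (-0.76 ± 0.19 SE, adjusted p = 0.00467, and -0.57 ± 0.19, 0.0411), as was Zfp536 (-0.97 and -0.42). Tcf7l2 (-0.55 ± 0.19 SE, adjusted p = 0.0438) was lower and Nkx6-2 (0.69 ± 0.23, 0.035) higher in the high line. Neither was called in the low line (-0.15 and 0.23), and the interaction of tissue and line was not called for either (adjusted p = 0.777 and 0.787, limma).

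In the list of precursors and newly formed oligodendrocytes, 5 of 12 measured genes were called higher in amygdala in each line, where 12.5% and 9.52% of all named genes were. The difference was positive in 9 of 12 genes in each line. Pdgfra, the growth factor receptor that marks precursors, was higher by 0.30 ± 0.07 SE (adjusted p = 0.00303) in the high line and 0.37 ± 0.07 (0.000478) in the low line. Gpr17, a receptor of committed precursors, was higher by 0.59 and 0.82, Lhfpl3 by 0.77 and 1.07, Sox6, a factor that holds precursors back from maturing, by 0.75 and 0.63, and Cacng4 by 0.46 and 0.79. One gene of that list, Itpr2, a calcium release channel of newly formed cells, was lower in the high line (-0.79 ± 0.19, 0.00465) and not called in the low line (-0.40 ± 0.19, 0.213; interaction adjusted p = 0.785). The summed signal of the list ran from 1898 to 2141 in high-line amygdala against 1389 to 1662 in high-line hippocampus, and from 1865 to 2092 in low-line amygdala against 1337 to 1475 in low-line hippocampus, with no shared range. The sum over the 9 myelin genes ran from 12127 to 14393 in high-line amygdala and from 13952 to 20663 in high-line hippocampus, which overlap, and from 11786 to 13849 in low-line amygdala and 15495 to 18934 in low-line hippocampus, which do not.

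**Figure D3:**
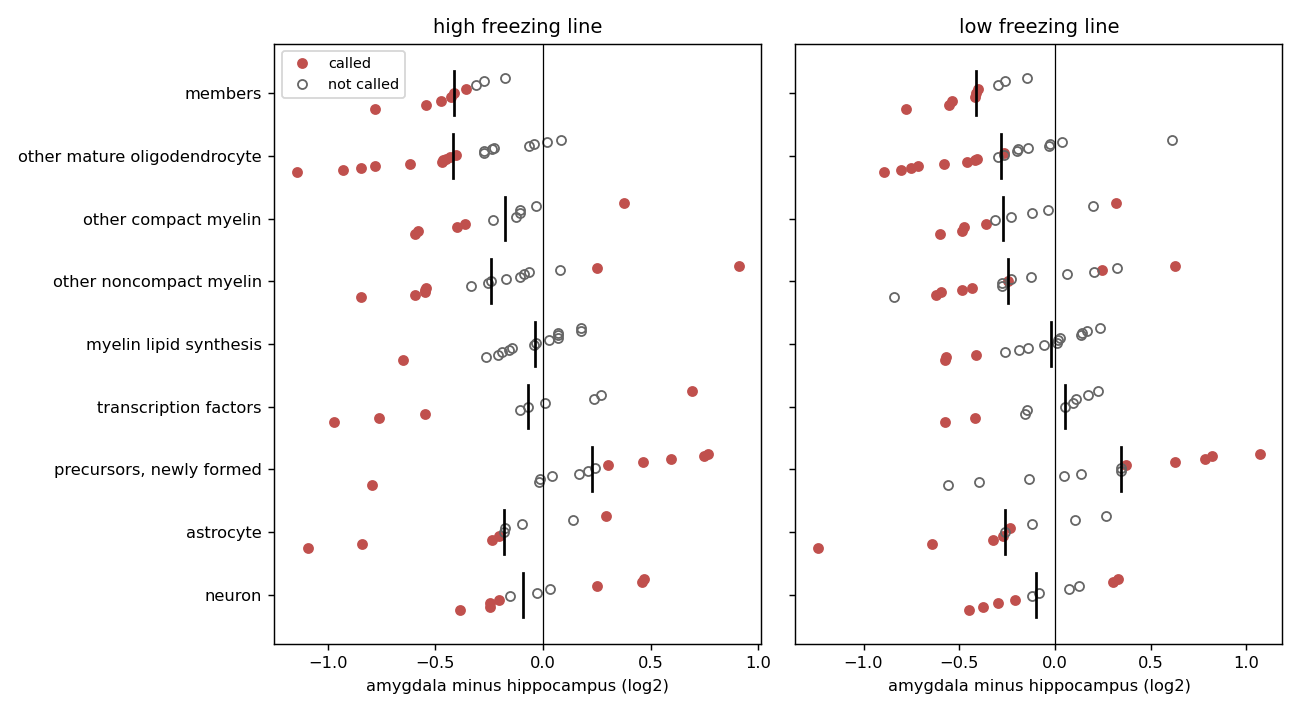
Difference amygdala minus hippocampus (log2 units, horizontal axis) of each measured gene, by list, in the high line (left) and low line (right); filled dots were called (limma, adjusted p under 0.05), open dots were not, and bars are list medians. The members and the mature oligodendrocyte genes lie mostly left of 0, and 9 of 12 precursor genes lie right of it in each line.

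Markers of other cells moved with tissue too, and their part in the differences of the myelin genes was not tested. Of 9 measured astrocyte genes, 4 were called lower in amygdala in the high line and 5 in the low line, among them Gfap (-1.09 and -1.24) and Aqp4 (-0.84 and -0.64), and 1, Aldh1l1, higher in the high line. Of all named genes, 9.67% were called lower in the high line and 7.67% in the low line. The summed astrocyte signal ran from 16908 to 19300 in high-line amygdala against 20157 to 21127 in high-line hippocampus, and from 16863 to 18077 in low-line amygdala against 19356 to 21603 in low-line hippocampus. Of 10 neuronal genes, 4 were lower in each line and 3 in the high line and 2 in the low line were higher. In the separate list of 3 neurofilament genes, which build the axon's cytoskeleton, 1 was called lower in the high line and 2 in the low line. Nefh differed by -0.39 ± 0.07 SE (adjusted p = 0.000383, limma) in the high line and -0.36 ± 0.07 (0.00103) in the low line. Nefl differed by -0.12 (0.118) and -0.20 (0.00922), and Nefm, not called, by 0.10 (0.436) and 0.08 (0.628). Of 9 microglial genes, none was lower in either line, and 1 in the high line (11.1%) and 3 in the low line (33.3%) were higher, where 12.5% and 9.52% of all named genes were. The summed signal of 7 choroid plexus and ependyma genes varied within every group, from 693 to 13067 in high-line amygdala, 1616 to 14066 in low-line amygdala, 1999 to 14947 in high-line hippocampus and 1531 to 16476 in low-line hippocampus.

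The lines did not differ by the test in any of the 9 genes, in either tissue. In hippocampus, 0 of 9 genes were called between the high and the low line (limma), where 0.0222% of all probe sets were. An unadjusted p under 0.05 was found there for 0 of 9 genes and for 8.97% of all probe sets. In amygdala 0 of 9 were called, where 0.00222% of all probe sets were. Again 0 of 9 had an unadjusted p under 0.05, where 6.54% of all probe sets did. Of the 25 probe sets, 1 in amygdala and none in hippocampus had an unadjusted p under 0.05: Mbp 1451961_a_at, with 10.04 in high-line amygdala and 10.57 in low-line amygdala on average (difference -0.53, unadjusted p = 0.0422, limma). High-line amygdala arrays 7 and 8 read 8.98 and 9.66 on it, against 10.18 to 10.64 on the others of that group. Their ratios of the 5′ to the 3′ actin control were 0.30 and 0.34, against 0.55 to 0.62 on those others. The part of RNA quality in this difference was not tested. Differences ran from -0.09 to 0.08 in hippocampus and from -0.18 to 0.06 in amygdala. The 95% intervals of single genes reached no further than -0.41 and 0.34 in hippocampus, the widest being that of Mal (-0.41 to 0.30), and -0.38 and 0.29 in amygdala. Ugt8a in amygdala came nearest to a difference, at 8.70 ± 0.19 in the high line and 8.88 ± 0.08 in the low line (SD, n = 6; difference -0.18, 95% interval -0.38 to 0.02).

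**Figure D4:**
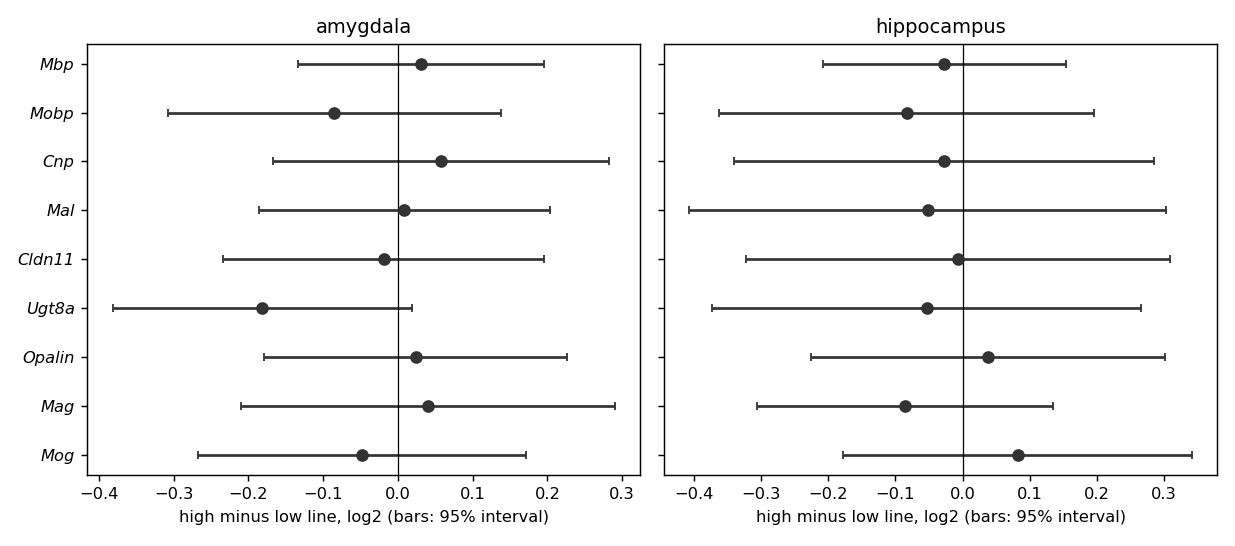
Difference between lines, high minus low (log2 units, horizontal axis), of each gene in amygdala (left) and hippocampus (right); dots are limma estimates and bars are 95% intervals. All 18 intervals contain 0.

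The line difference also did not differ between the tissues by the test: 0 of 9 genes were called in the interaction of line and tissue (limma), where 0% of all probe sets were. An unadjusted p under 0.05 was found for 0 of 9 genes and for 7.08% of all probe sets. The interaction was between -0.13 and 0.13 in the 9 genes, and the intervals reached -0.49 and 0.46. The tissue differences of Mobp in the 2 lines, -0.78 and -0.78, were the closest of all.

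Although the line means did not differ by the test, the arrays of a group differed from each other, and in the hippocampus of the high line most. The SD of 8 of 9 genes was largest in high-line hippocampus, and that of Mag in high-line amygdala. The median SD over the 9 genes was 0.28 in high-line hippocampus against 0.15 in low-line hippocampus, and 0.19 in high-line amygdala against 0.12 in low-line amygdala. Over all probe sets the medians were 0.265 against 0.239 and 0.227 against 0.227. In high-line hippocampus, array 8 was the lowest in 8 of 9 genes and array 12 the highest in 7 of 9. Averaged over the 9 genes, array 8 deviated from its group mean by -0.393, with 0 of 9 genes above the mean, and array 12 by 0.374, with 9 of 9 above it.

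The 9 genes varied together between arrays of the same group. Across the 24 deviations of arrays from their group means, Pearson's r was positive for all 36 pairs of genes, from 0.141 (Mbp and Opalin) to 0.883 (Cldn11 and Ugt8a), with a median of 0.63, and Spearman's rho ran from 0.092 to 0.806. These are descriptions of arrays that share their group means, their scaling and, possibly, their dissection. An r over 0.6 was found in 20 of 36 pairs. For single genes, 0.171% (Mog) to 0.555% (Cnp) of all probe sets had an r over 0.6 with the gene. Mobp had the highest median r with the other 8 genes (0.744) and Cnp the lowest (0.447).

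Each gene was then entered as a covariate beside the 4 group means. The slope was positive in all 72 ordered pairs of genes, as it must be where r is positive in all 36 pairs. Of the 72, 4 were called (limma, adjusted p over all probe sets), named here with the covariate first. These were Ugt8a on Cldn11 (slope 0.90 ± 0.13 SE, adjusted p = 0.0132), Ugt8a on Mobp (0.83 ± 0.12, 0.018), Cldn11 on Ugt8a (0.87 ± 0.13, 0.0291) and Mobp on Ugt8a (0.93 ± 0.14, 0.0391). The share of all probe sets called with a positive slope was 0.00666% for Ugt8a, 0.00222% for Mobp, Cldn11 and Cnp, and 0% for Mbp, Mal, Opalin, Mag and Mog as covariates. The 4 called slopes were thus the pairs Mobp and Ugt8a (r of 0.879) and Cldn11 and Ugt8a (0.883), each in both directions.

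Part of this rests on the 2 extreme arrays. Without arrays 8 and 12 of high-line hippocampus the median r was 0.494, 33 of 36 pairs were positive, and 8 pairs had an r over 0.6. With either of them left out of the fit, 0 of the 72 ordered pairs were called. The count was 2 without array 4 or 6 of low-line amygdala, 8, 9 or 10 of high-line amygdala, 1, 2 or 3 of low-line hippocampus, or 9 or 10 of high-line hippocampus. Without the 3 arrays that stood apart in the whole series (high-line amygdala arrays 7 and 8 and high-line hippocampus array 7) the median was 0.638 with all 36 pairs positive. Within groups of 6 arrays the median r was 0.66 in high-line amygdala, 0.114 in low-line amygdala, 0.782 in high-line hippocampus and 0.67 in low-line hippocampus, and 21 of 36 pairs were positive in low-line amygdala.

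**Figure D5:**
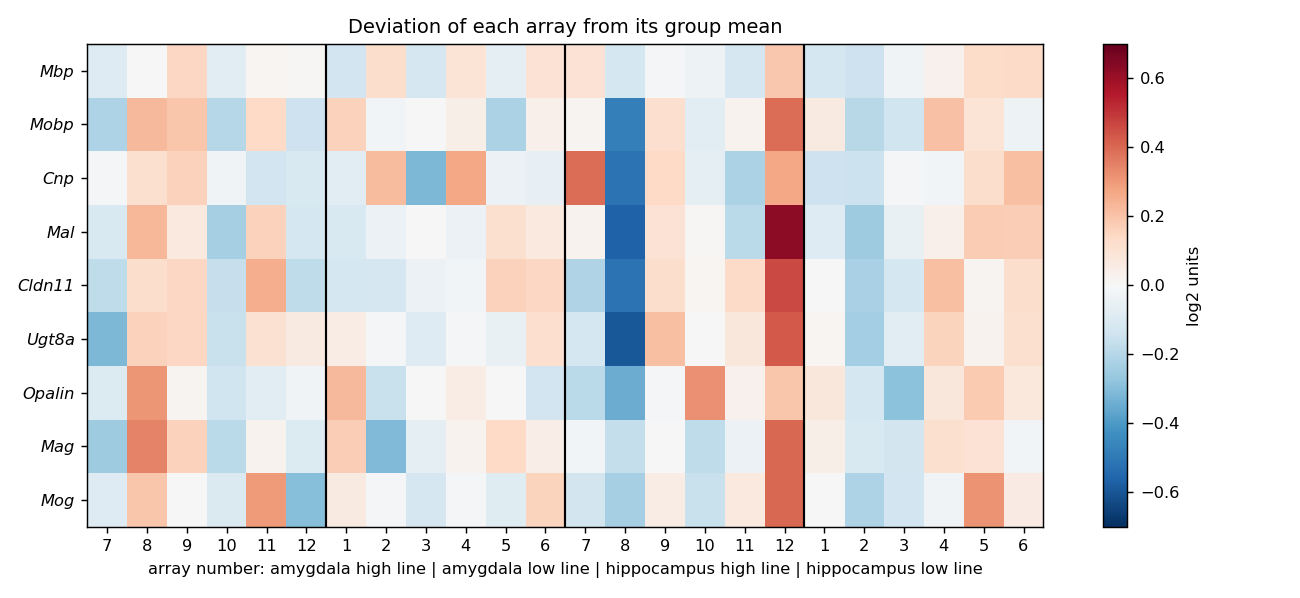
Deviation of each array (columns, by group and array number) from its group mean (log2 units, colour, red above and blue below) for each gene (rows). In high-line hippocampus, array 8 was the lowest in 8 of 9 genes and array 12 the highest in 7 of 9.

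The technical readings of the arrays had correlations between -0.39 and 0.37 with the 9 genes, and that with the 18S control was positive in 1 of 9. Over the 24 deviations, r with the array's median signal ran from -0.349 to 0.37 over the 9 genes, with the 18S control from -0.39 to 0.027 and with the actin 5′ to 3′ ratio from -0.186 to 0.171. With the summed signal of other compact myelin genes it ran from 0.556 to 0.83, with that of the precursor list from 0.12 to 0.522, and with choroid plexus from -0.215 to 0.148. It ran from 0.052 to 0.462 with the astrocyte list (positive in 9 of 9 genes, highest in Cnp), from -0.118 to 0.523 with microglia (8 of 9) and from -0.019 to 0.5 with neurons (7 of 9). These correlations are descriptions of 24 arrays, and the part of other cells in the covariation was not tested. Array 12 of high-line hippocampus, the highest, had the lowest 18S reading of its group (3600.0), and array 8, the lowest, the highest (5800). The other arrays of the group lay between arrays 12 and 8 in both readings. Array 10 read 5780 with a mean deviation of -0.021, and array 7 read 4708 with -0.014. Arrays 9 and 11 read 5626 and 5655, with 0.08 and -0.026. The part of RNA preparation in the readings of arrays 8 and 12 was not tested.

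Outside the 9, the genes whose deviations were most like the mean deviation of the members were, by Pearson's r over 24 arrays, Tspan2 (0.808), Erbin (0.750), Ermn (0.732), Ttyh2 (0.732), Bcas1 (0.731), Plekhh1 (0.731), Zswim4 (0.721), Zfp109 (0.715), Evi2a (0.714) and Plekhb1 (0.709). 1 gene of clone name also stood among them. Of these, Tspan2, Ermn, Bcas1, Evi2a and Plekhb1 belong to the oligodendrocyte and myelin lists. In each named gene r was higher in hippocampus than in amygdala, from 0.752 against 0.731 (Ermn) to 0.875 against 0.237 (Ttyh2). These r were not computed without arrays 8 and 12 of high-line hippocampus, whose mean deviations were the largest. The median r was 0.36 for the mature oligodendrocyte list and 0.105 for the precursor list. It was 0.104 for the astrocyte list and 0.086 for the neuron list, beside -0.001 over all genes.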

How the data were processed

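Gene expression was measured on 24 Affymetrix arrays of mouse amygdala and hippocampus. The deposited values are linear intensities, 1 per probe set. Neither the signal algorithm nor the tissue handling is stated in the sources used here. The values show that the authors scaled every array to a mean of 150 after trimming 2% at each end. Intensity plus 16 was put on the log2 scale, which understates changes of dim probe sets. Of 45101 probe sets, 64 controls were left out of tests. Of the 45037 tested, 34945 had 1 symbol in the platform annotation, 932 several and 9160 none; symbols were updated through Entrez identifiers. A gene stands by its probe set with the highest mean over all arrays.

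limma 3.58.1 in R 4.3.3 (lmFit, eBayes) was used, with Benjamini-Hochberg adjustment over all tested probe sets and a threshold of 0.05. Line differences used the 12 arrays of a tissue, and tissue differences, the interaction and the covariate fits used all 24 in a model of 4 group means. The fits were tested on simulated data. The number of arrays limits the precision. The members, gene lists and motifs were chosen with earlier results of these data known. The genes named are all members and, of each list, up to 4 called genes per direction by size of difference. For the most similar genes, up to 10 outside the members with the highest correlation with their mean deviation are named. The alternatives were other pseudocounts, scalings, filters and priors, the mean of a gene's probe sets, arrays left out and the array number as a block. Same-numbered arrays of the 2 tissues did not deviate together (correlations from -0.055 to 0.045 over 12 numbers, 0 over 0.1), so the numbers were not taken as pairs.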

Additional observations from a re-analysis of the deposited data

Results flagged for a closer look

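In 2 of the 36 combinations of gene and group, 1 array stood far from the other 5, by the gap to its nearest neighbour as a share of the group's range, against Dixon's critical value. Opalin read 7.93 on array 8 of high-line amygdala (gap 0.65 of the range), and Mag read 8.44 on array 12 of high-line hippocampus (0.686). Chance alone gives such a gap in about 1 of 20 groups. Array 12 was also high in the other genes of that group, and array 8 of high-line amygdala lay above its group mean in all 9 genes.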

How the results depend on the processing

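The tissue difference was negative in all 9 genes and both lines under every alternative run. Mbp, Mobp, Mag and Mog were called in both lines under all of them, Opalin in the high line and Mal in the low line likewise, and Cnp under none. Opalin in the low line had an adjusted p of 0.0503 with the array number as a replicate block, under which the counts were 6 genes in the high line, 5 in the low line and 0 in the interaction. In the high line, Cldn11 was called with an intensity trend in the prior (adjusted p = 0.0466) and Ugt8a with the mean of its probe sets (0.0334). No line difference or interaction of the 9 genes was called under any alternative (lowest adjusted p 0.556 in hippocampus, 0.65 in amygdala and 0.73 in the interaction). With the mean of all probe sets of a gene, the line difference in amygdala was -0.0913 for Mbp and -0.1227 for Mal, and the Mbp interaction -0.0652, with signs opposite to the brightest probe set; the cause was not tested. Over all alternatives, the sign of single line differences was the other one in 17 of 189 values in hippocampus and 22 of 189 in amygdala, and that of the interaction in 39 of 297. The called ordered pairs of genes numbered 8 with log2(signal + 64), 7 without the lowest 40% of probe sets (fewer probe sets tested), 10 with the intensity trend and 1 with the mean of probe sets, and 0 to 6 with 1 array left out. Fitting 1 line's arrays alone was not run for the interaction, which needs both lines. Other scalings moved the median tissue or line difference of all probe sets by less than 0.1. Probe sets near background limit what the dimmest Opalin and Mobp probe sets can show.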
